A study of Homo sapiens with 6 samples.

Results

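Integrins and laminins are the receptors and ligands that anchor cells to basement membrane and stroma. Their subunit genes were taken by symbol from the deposited expression table: the numbered and lettered alpha subunits (ITGA), the beta subunits (ITGB) and the alpha, beta and gamma laminin chains (LAMA, LAMB, LAMC). The rule found 38 genes among the 17170 of the table, 18 integrin alpha and 8 integrin beta subunits, and 5 alpha, 4 beta and 3 gamma laminin chains. All 38 matched RefSeq by gene number. Levels are TPM, the transcripts of a gene as a share of all transcripts at a fixed total per library. The unit is divided by transcript length and can therefore be compared between genes.

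The series is poly(A) RNA-seq of a cell line labelled NCI-H69, from small cell lung cancer, grown in RPMI-1640 with serum. Per the labels, 3 samples are stable SCRMP knockout cells made with CRISPR/Cas9 aimed at the coding sequence in MIR7-3HG, and 3 are negative control cells that received a non-targeting guide RNA. The labels do not say whether either population is a clone or a pool. The labels name a column of the table for each sample. Of the names given for knockout columns, 0 of 3 were found in the header, so the knockout samples are not analysed here and no comparison between genotypes was made. Every value below comes from the 3 libraries labelled control, as mean ± SD with n = 3. The labels call them biological replicates without saying when their cultures were split, so part of the SD may be technical.

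An integrin is a heterodimer of 1 alpha and 1 beta subunit, and the alpha subunit largely sets which matrix protein is bound. Beta tails recruit talin and kindlin, which switch the receptor on and link it to actin. Laminins are secreted as a heterotrimer of 1 alpha, 1 beta and 1 gamma chain, joined in a coiled coil inside the cell. The alpha chain carries the globular domains that integrins and dystroglycan bind.

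In the marker lists, the control libraries went against their labelled cell type. Detected is the term used here for a level no lower than 1 TPM in each of the 3 libraries, which 66.5% of all genes reached. Of 6 neuroendocrine markers, 1 was detected (16.7%). It was NCAM1, a neural adhesion molecule, at 25.7 TPM ± 3.66, while the granule protein CHGA and the transcription factor INSM1 stood at 0.080 TPM ± 0.020 and 0.650 TPM ± 0.0458. The summed level of the list ranged from 23.2 to 30.6 TPM. All 6 mesenchymal or fibroblast markers were detected, with a summed level of 6294 to 6323 TPM, most of it vimentin, and some of them recur among the ligands below. Of 6 epithelial markers, 1 was detected (16.7%), KRT8, and the list had a summed level of 4.54 to 5.19 TPM. E-cadherin (CDH1) had 0.203 TPM ± 0.0252. Leukocyte markers had 2 of 5 measured genes detected (40%), CORO1A and LCP1, with a summed level of 8.98 to 11.7 TPM. Among 4 endothelial and 2 platelet markers 0 were detected, with summed levels of 0.57 to 0.70 and 0.03 to 0.17 TPM, and PPBP had 0 reads in every library. The part of the cells' identity in the levels below was not tested. In bulk RNA, fewer cells of a type and less RNA per cell cannot be told apart.

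Of the 38 subunit genes, 17 were detected (44.7%), against 66.5% of all genes in the table. At 10 TPM or more in all libraries there were 8 (21.1%), against 42.5% of all genes. Laminin chains were detected in 7 of 12 cases and integrin subunits in 10 of 26. The median over the members was 0.675 TPM ± 0.0958, beside 6.83 TPM ± 0.461 over all genes. Below 0.5 TPM in every library were 16 of the 38 (42.1%), against 26.5% of all genes. Together the members held 0.0522% ± 0.00348 of all TPM.

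**Figure D1:**
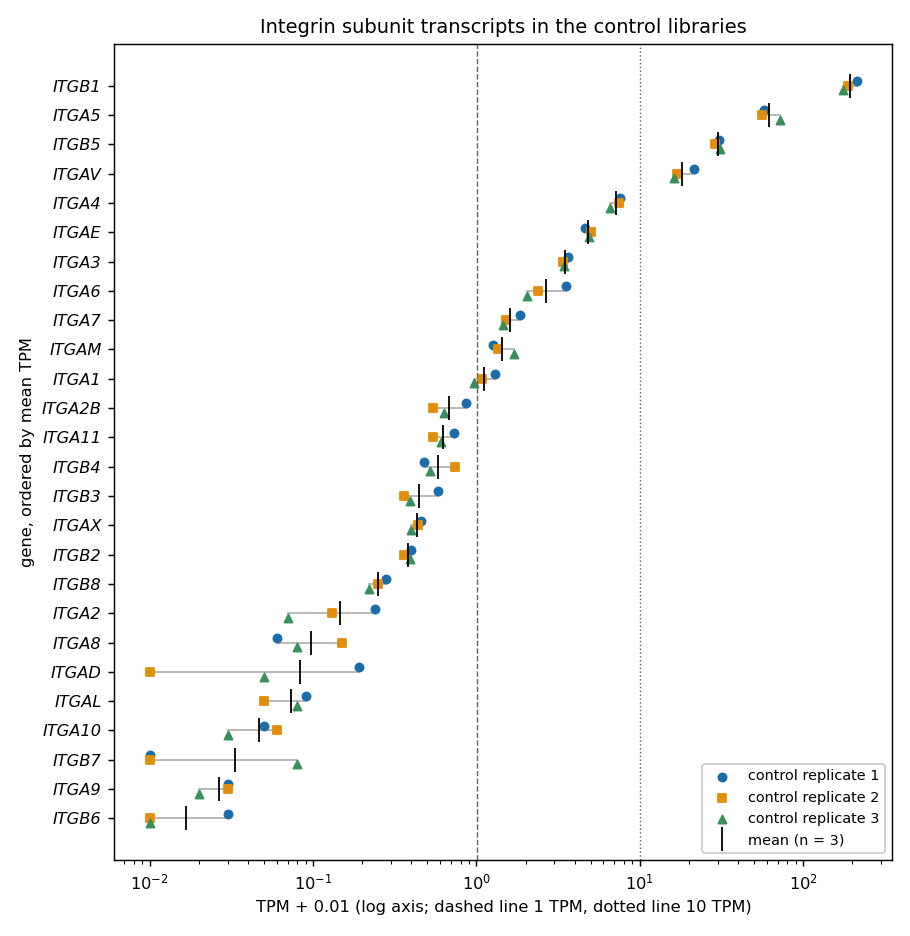
TPM of the 26 integrin subunit genes in each of the 3 control libraries (points) with their mean (bar), on a log axis with 0.01 added, ordered by mean. ITGB1 stands alone at the top, ITGA5, ITGB5 and ITGAV follow above 10 TPM, and ITGB7 and ITGB6 lie near 0.

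ITGB1, the beta subunit shared by the largest group of integrins, was the highest member. It had 214, 188 and 175 TPM in the 3 libraries, a mean of 192.7 TPM ± 19.7, which ranked it 671 of the 17170 genes. The gene lies on chromosome 10, 32900318 to 32958230 (GRCh38.p14). It was 6.41 times as high as the next beta subunit, and no other member's range reached its lowest library. It held 85.8% ± 1.32 of all integrin beta TPM, and with ITGB5 99.3% ± 0.0336.

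The ITGB1 start region is shown because this gene feeds nearly every receptor described below. It is the RefSeq window from 250 bases before to 50 after the start site, minus strand, at chr10:32958181-32958480 (GRCh38.p14), 5′ to 3′. Capitals mark the GC box letters GGGCGG or their complement CCGCCC, searched on both strands with overlaps counted.

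ITGB1: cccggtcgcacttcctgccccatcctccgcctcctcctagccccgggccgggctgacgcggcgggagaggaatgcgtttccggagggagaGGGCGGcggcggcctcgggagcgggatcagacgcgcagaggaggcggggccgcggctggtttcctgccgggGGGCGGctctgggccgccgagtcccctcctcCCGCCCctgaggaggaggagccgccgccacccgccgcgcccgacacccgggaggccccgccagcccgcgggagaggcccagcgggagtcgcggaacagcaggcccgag

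This window holds 3 such matches and is 78.3% G or C. Of all 35116 RefSeq promoter windows of this length in the table used, 44.95% hold at least 1 match. Among the 26 members with a window, 10 of 14 detected and 4 of 12 undetected genes hold one. The LAMA3 window, among the 10, lies at a start 183567 bases inside the gene. That of ITGB8, among the 4, lies 1134 bases inside. Each gene has 1 level, so neither level can be tied to its window's start. The same split by detection was not made over all genes, so this difference cannot be called particular to the members. These letter matches describe the sequence and are not evidence of binding.

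ITGB5, which pairs with ITGAV in a vitronectin receptor, had 30.5, 28.7 and 31.1 TPM (mean 30.1 ± 1.23). Its coefficient of variation, 4.07%, was the lowest of the 8 members at 10 TPM or more, followed by 5.36% for LAMA3. The other 6 beta subunits were not detected. ITGB4, the hemidesmosome subunit, had 0.47, 0.73 and 0.51 TPM, and ITGB3, of platelets and osteoclasts, had 0.57, 0.35 and 0.38 TPM. Their ranges overlapped, so their order is not separated from the spread. ITGB3 exons share 2266 bases, 51.6% of their length, with AC068234.1 (GENCODE 29). That is a protein-coding gene on the same strand with no value of its own here. What this overlap does to the ITGB3 level was not tested. ITGB2, the leukocyte subunit, had 0.373 TPM ± 0.0208 and ITGB8, which helps release active TGF-beta, 0.240 TPM ± 0.030. ITGB7, of gut-homing lymphocytes, had 0 reads in 2 libraries and 2.44 estimated reads in the third. ITGB6, an epithelial subunit, rested on a single read in replicate 1 and none elsewhere, where a floor of 3 reads would be worth 0.060 TPM.

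Among alpha subunits ITGA5, the fibronectin receptor subunit, was highest with 57.8, 56.0 and 72.2 TPM (mean 62.0 ± 8.91; chromosome 12, 54395261 to 54419266). Replicate 3 was the high library here, whereas ITGB1 had its lowest value there. ITGAV, which binds RGD ligands with several beta partners, had 21.5, 16.99 and 16.1 TPM (mean 18.2 ± 2.88). The ranges of ITGA5 and ITGAV did not overlap, and ITGA5 was 3.49 ± 0.910 times as high within a library. ITGA5 alone held 59.1% ± 5.26 of all alpha subunit TPM.

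ITGA4, a receptor subunit for VCAM1 and fibronectin, had 7.60, 7.44 and 6.56 TPM. ITGAE followed with 4.60, 5.01 and 4.86 TPM. In epithelium-associated lymphocytes ITGAE binds E-cadherin together with ITGB7. Its annotated exons overlap those of the kinase gene HASPIN on the opposite strand by 427 bases, 6.41% of its exon length (GENCODE 29), and HASPIN had 7.18 TPM ± 0.850. The sources used here do not give whether counting by the authors used strand, and the part of HASPIN reads in the ITGAE level was not tested. ITGB7 shares more, 1886 bases or 42.1% of its exon length, with the opposite-strand gene ZNF740 (28.5 TPM ± 2.23), and had the near-zero reads given above.

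The laminin-binding subunits were low. ITGA3 had 3.62, 3.39 and 3.42 TPM, ITGA6 had 3.53, 2.39 and 2.02 TPM, and ITGA7, the muscle form, had 1.84, 1.51 and 1.45 TPM. Ranges of ITGA3 and ITGA6 overlapped through replicate 1. ITGA6 had the largest coefficient of variation of all detected members, 29.7%, where counting error alone would give about 7.52%. The 3 genes summed to 7.72 TPM ± 1.12, close to ITGA4 alone.

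The collagen-binding subunits were lower still. ITGA1 had 1.30, 1.07 and 0.96 TPM and so missed the minimum in replicate 3. PELO, a ribosome rescue factor gene, shares 475 bases of ITGA1 exons on the same strand and had 22.6 TPM ± 0.936, and its part in the ITGA1 level was not tested. ITGA11 had 0.617 TPM ± 0.0961, ITGA2 0.137 TPM ± 0.0862 and ITGA10 0.0367 TPM ± 0.0153. Their summed level of 1.90 TPM ± 0.344 stood beside abundant collagen transcripts. Of 10 listed collagen genes 8 were detected (80%, against 66.5% of all genes), led by COL3A1 (567.5 TPM ± 19.0) and COL5A2 (114.6 TPM ± 6.26).

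Leukocyte alpha subunits were near or below 1 TPM, apart from ITGA4 and ITGAE above. ITGAM, of myeloid cells, had 1.25, 1.34 and 1.70 TPM and passed the minimum. ITGAX had 0.423 TPM ± 0.0306. ITGAD rested on 7.08 and ITGAL on 11.2 estimated reads over the 3 libraries. ITGAM, ITGAX and ITGAD lie side by side on chromosome 16, with 22298 and 10335 bases between them. The platelet subunit ITGA2B had 0.667 TPM ± 0.165, and ITGA8 and ITGA9 had 0.0867 TPM ± 0.0473 and 0.0167 TPM ± 0.00577. Of 17 pairs of neighbours in the order of alpha subunits, 9 had overlapping ranges, all of them below ITGAE.

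**Figure D2:**
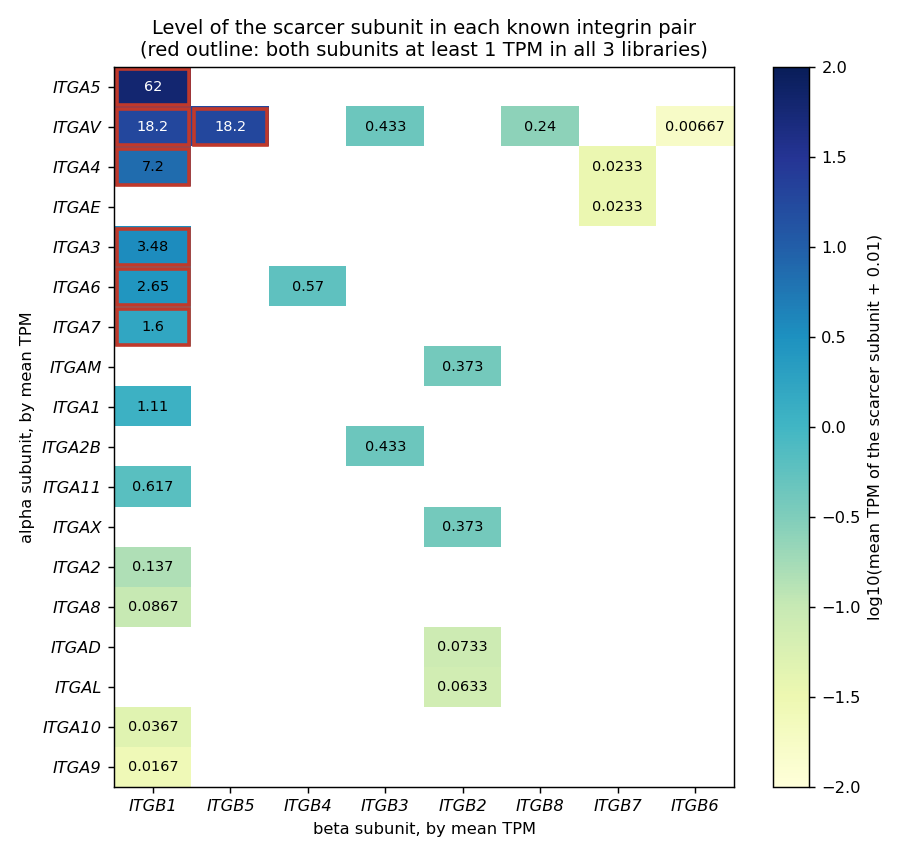
Mean TPM of the scarcer subunit for each of the 24 known integrin pairs, alpha subunits down and beta subunits across, both by mean TPM; colour is log10 of the value plus 0.01, and red outlines mark pairs with both subunits at 1 TPM or more in all 3 libraries. The 7 outlined pairs fall in the ITGB1 and ITGB5 columns, and blank cells are combinations not among the 24.

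Of the 24 known mammalian integrin heterodimers, 7 had both subunits detected and 3 had both at 10 TPM or more. The 3 were ITGA5/ITGB1, the classical fibronectin receptor, and ITGAV with ITGB1 or with ITGB5. Their scarcer subunit was the alpha subunit in each, at 62.0 TPM for the first and 18.2 TPM for both ITGAV pairs. Next came ITGA4/ITGB1 at 7.2 TPM ± 0.560. The laminin receptors ITGA3/ITGB1, ITGA6/ITGB1 and ITGA7/ITGB1 were set by their alpha subunits at 3.48, 2.65 and 1.60 TPM. By ligand class, both subunits were detected for 3 of 8 RGD-binding pairs and 3 of 4 laminin-binding pairs. The same held for 0 of 4 collagen-binding pairs and 1 of 8 leukocyte and related pairs. Among the collagen-binding pairs, ITGA1/ITGB1 missed the minimum through replicate 3 alone, where ITGA1 had 0.96 TPM. Bulk transcript levels say which partner transcripts were present in the culture. They do not say whether both were in the same cell, or whether protein pairs formed or reached the surface.

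Of the 17 other pairs, 7 lacked the beta subunit alone, 6 the alpha subunit alone and 4 both. The 6 were pairs of ITGB1 with ITGA1, ITGA2, ITGA8, ITGA9, ITGA10 or ITGA11. ITGAV at 18.2 TPM met ITGB3 at 0.433, ITGB8 at 0.240 and ITGB6 at 0.00667 TPM. ITGA6 met ITGB4 at 0.570 TPM, below the minimum for the hemidesmosome receptor. Both ITGAE and ITGAM were detected with no detected beta partner, since ITGAE is known to pair with ITGB7 and ITGAM with ITGB2. They were the only 2 such members.

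ITGB1 exceeded the sum of all its possible alpha partners. The 12 alpha subunits known to pair with it summed to 98.2, 89.6 and 103.5 TPM, a mean of 97.1 ± 7.02, and ITGB1 was 1.99 ± 0.261 times as high. The ratio was 2.18, 2.10 and 1.70 in replicates 1, 2 and 3, and in every library the beta subunit was the higher side. For the ITGAV/ITGB5 pair, ITGB5 was 1.68 ± 0.253 times as high as ITGAV, which is also known to pair with ITGB1. These are ratios of transcripts, and protein amounts were not measured.

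**Figure D3:**
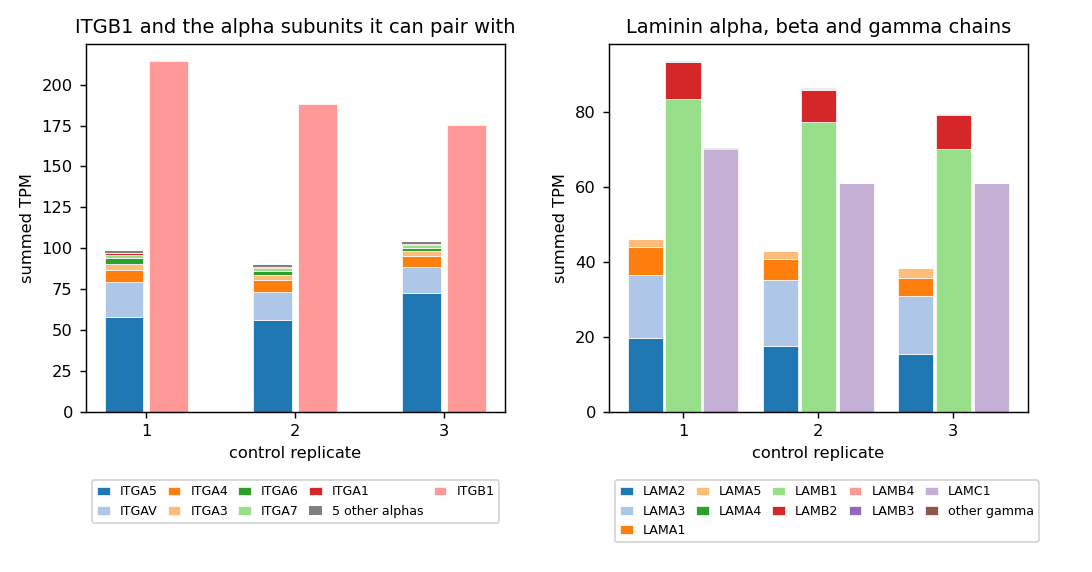
Summed TPM in each control library: left, the alpha subunits known to pair with ITGB1 (stacked) beside ITGB1; right, laminin alpha, beta and gamma chains (3 stacked bars per library, in that order). ITGB1 is higher than the stack of its partners in all 3 libraries, and the laminin alpha stack is the lowest of the 3 chain classes in all 3.

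**Figure D4:**
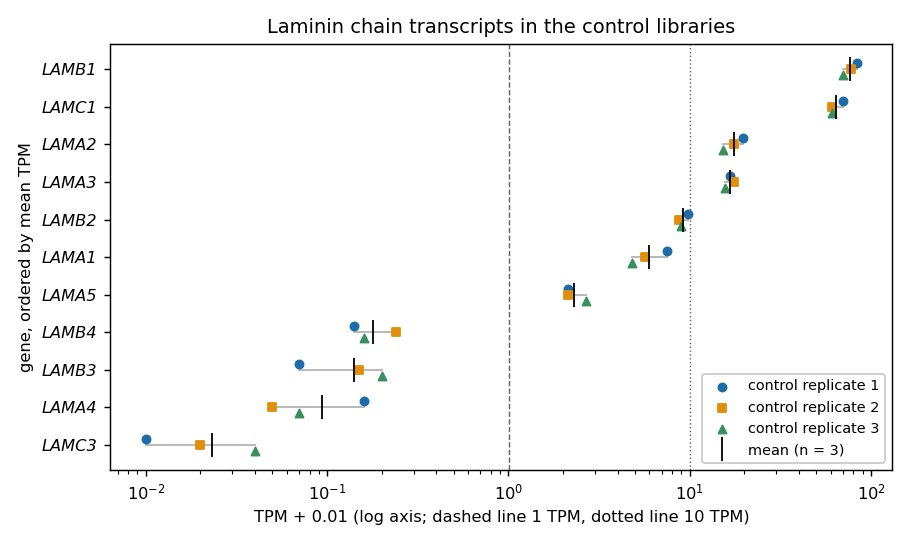
TPM of 11 laminin chain genes in each control library (points) with their mean (bar), on a log axis with 0.01 added. LAMB1 and LAMC1 lead, 7 chains lie above 1 TPM in all libraries, and the other 4 shown stay at 0.23 TPM or less.

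Laminin transcripts were led by the common beta and gamma chains. LAMB1 had 83.6, 77.3 and 70.2 TPM (mean 77.0 ± 6.71; chromosome 7, 107923799 to 108003161). LAMC1, the gamma chain of most laminins, had 70.2, 61.1 and 61.0 TPM (mean 64.1 ± 5.30; chromosome 1, 183023420 to 183145592). Within each library LAMB1 was the higher, by 1.20 ± 0.0585 times, although the ranges of both genes overlap narrowly. Together they held 73.1% ± 0.346 of laminin TPM. LAMB2, the beta chain of muscle, kidney and synaptic basement membranes, had 9.74, 8.69 and 8.93 TPM. LAMB1 was 8.45 ± 0.532 times as high as LAMB2. LAMB1 exons share 70 bases, 0.860% of their length, with the opposite-strand metabolic enzyme gene DLD (71.7 TPM ± 6.13), and the part of DLD reads in the LAMB1 level was not tested.

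LAMB1 sits beside a nearly silent paralog. LAMB1 and LAMB4 lie 8500 bases apart on chromosome 7, with no other gene of the table between them, and LAMB4 had 0.170 TPM ± 0.0529 from 18.6 reads. The RefSeq windows of LAMB1 (chr7:108003112-108003411) and LAMB4 (chr7:108130312-108130611), both minus strand, are shown because these adjacent genes differ so far in level. They cover 250 bases before to 50 after each start, 5′ to 3′, with GC box matches in capitals as for ITGB1.

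LAMB1: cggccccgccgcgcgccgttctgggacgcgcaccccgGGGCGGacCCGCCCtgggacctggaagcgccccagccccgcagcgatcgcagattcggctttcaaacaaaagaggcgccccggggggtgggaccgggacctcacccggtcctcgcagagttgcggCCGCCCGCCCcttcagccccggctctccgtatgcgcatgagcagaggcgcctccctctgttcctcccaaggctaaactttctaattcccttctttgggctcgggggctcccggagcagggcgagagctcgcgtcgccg

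LAMB4: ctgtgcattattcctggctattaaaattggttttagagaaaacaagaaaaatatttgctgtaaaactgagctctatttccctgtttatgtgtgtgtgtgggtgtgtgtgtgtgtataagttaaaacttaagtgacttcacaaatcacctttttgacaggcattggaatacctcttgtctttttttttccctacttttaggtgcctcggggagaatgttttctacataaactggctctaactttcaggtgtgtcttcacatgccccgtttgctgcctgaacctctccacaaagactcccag

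The LAMB1 window holds 4 matches, 2 of them overlapping, and 35 CG dinucleotides, and is 71.0% G or C. The LAMB4 window holds 0 matches and 2 CG dinucleotides and is 39.7% G or C. No match says only that these letters are not in this window. The pair was picked for its difference in level. Among other members, the undetected ITGA2 and ITGA8 also hold 4 matches each, and the detected ITGAV holds 0. Over the members with a window, 10 of 14 detected and 4 of 12 undetected genes hold a match, as given above. Whether window content goes with level was not tested.

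Alpha chains were spread over several genes. LAMA2, the chain of muscle and nerve basement membranes, had 19.7, 17.6 and 15.2 TPM (mean 17.5 ± 2.24). LAMA3, best known from epithelial basement membranes, had 16.8, 17.5 and 15.7 TPM (mean 16.7 ± 0.894). Their ranges overlapped and their ratio within a library was 1.05 ± 0.111, so neither was the higher beyond the spread. LAMA1, the embryonic chain, had 7.47, 5.68 and 4.77 TPM, and LAMA5, the broadly expressed adult chain, had 2.11, 2.12 and 2.68 TPM. LAMA5 exons share 244 bases, 1.71% of their length, with the opposite-strand proteasome gene ADRM1 (152.4 TPM ± 6.95), whose part in the LAMA5 level was not tested. LAMA2 and LAMA3 held 80.4% ± 1.41 of alpha chain TPM.

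LAMA4, the alpha chain of vessel and mesenchymal basement membranes, was not detected. It had 3, 3 and 5 reads, listed as 0.15, 0.04 and 0.06 TPM, so the TPM assigned per read differed 4.17-fold between libraries and its level carries no more than a handful of reads. LAMB3 had 0.130 TPM ± 0.0656 from 20.98 reads, and LAMC3 had 3.69 reads in all.

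**Figure D5:**
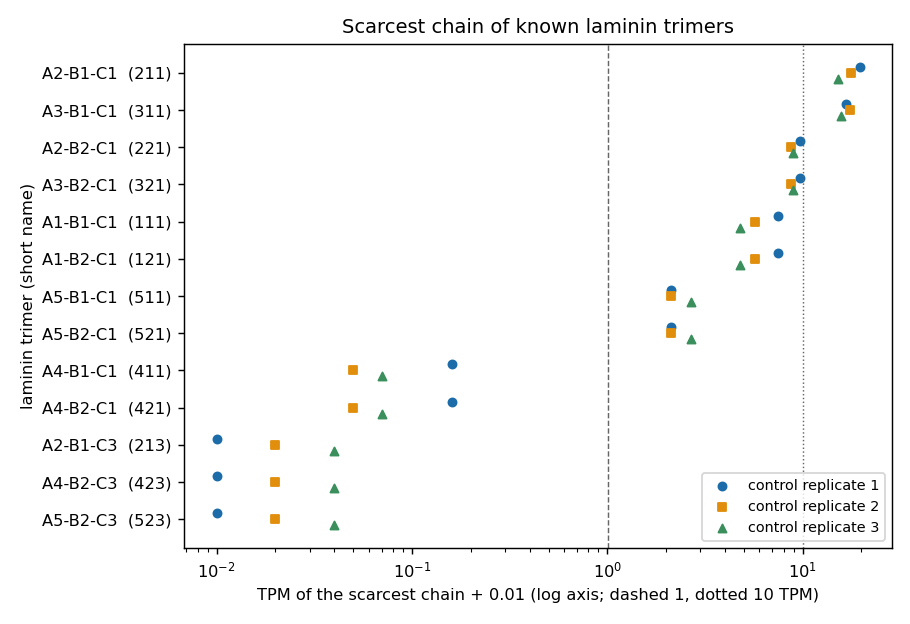
TPM of the scarcest chain of 13 known laminin trimers in the 3 control libraries, on a log axis with 0.01 added; rows give the chains and the short name. The 8 upper trimers lie above 2 TPM in all libraries, and the 5 lower ones stay at 0.15 TPM or less.

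Of 15 known laminin trimers, 8 had all chains detected, and all 8 contain LAMC1. The highest by their scarcest chain were laminin-211 (17.5 TPM ± 2.24) and laminin-311 (16.7 TPM ± 0.894), both limited by the alpha chain and the only 2 with all chains at 10 TPM or more. Laminin-221 and laminin-321 were set by LAMB2 at 9.12 TPM ± 0.550. Laminin-111 and laminin-121 were set by LAMA1 at 5.97 TPM ± 1.37, and laminin-511 and laminin-521 by LAMA5 at 2.30 TPM ± 0.326. The trimers of LAMA4 numbered 3, and 0 of them had all chains detected. The table gives 1 value per gene, so the long and short LAMA3 forms are not separated. Bulk levels do not say whether the chains of a trimer were made in the same cell.

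Summed alpha chains came to 46.2, 43.0 and 38.5 TPM, below the gamma sum (70.3, 61.1 and 61.1 TPM) and the beta sum (93.5, 86.4 and 79.5 TPM) in every library. The beta sum was 2.03 ± 0.0285 and the gamma sum 1.51 ± 0.0830 times the alpha sum. As for ITGB1, the shared chains exceeded the chains that set specificity.

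Other basement membrane genes were mostly undetected, with 33.3% of the list detected against 66.5% of all genes. Of 15 listed, 5 were detected: the matrix proteins SPARC (166.2 TPM ± 4.47) and FBLN1 (139.2 TPM ± 3.26), COL4A5 (6.19 TPM ± 1.19), the synapse organiser AGRN (5.97 TPM ± 0.830) and the laminin linker NID1 (2.44 TPM ± 0.140). COL4A1 and COL4A2, the usual network collagens of basement membranes, had 0.00333 TPM ± 0.00577 and 0 reads, and the second linker NID2 had 0.0133 TPM ± 0.0115. The list median was 0.060 TPM ± 0.0265, beside 4.14 TPM ± 0.571 over the laminin chains, while SPARC and FBLN1 lay above LAMB1. All 8 genes of a list of non-integrin laminin receptors were detected, against 66.5% of all genes. The list includes SGCB (32.4 TPM ± 1.83) and SGCE (29.8 TPM ± 1.47), sarcoglycans that accompany dystroglycan and are not laminin receptors themselves. Dystroglycan (DAG1) had 7.41 TPM ± 0.686 and BCAM 5.39 TPM ± 0.101, and RPSA (5084 TPM ± 95.6) is also a ribosomal protein gene.

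Ligands of the leading integrins were present at unequal levels. Of 21 measured RGD and other matrix ligands, 13 were detected (61.9%), near the 66.5% of all genes. FN1, the ligand of ITGA5/ITGB1, had 13.3 TPM ± 1.65, below ITGA5. VCAM1, a ligand of ITGA4/ITGB1, had 57.1 TPM ± 2.90. The ITGAV ligands POSTN and MFGE8 had 693.8 TPM ± 96.2 and 142.4 TPM ± 10.2, whereas vitronectin (VTN), osteopontin (SPP1) and ICAM1, a ligand of ITGB2 integrins, had 0.10, 0.020 and 0.0833 TPM.

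Transcripts of the activation and linkage machinery were mostly detected. Of 26 activators and adaptors, 22 were detected (84.6%), against 66.5% of all genes. They were led by FERMT2 (kindlin-2) at 111.8 TPM ± 4.27 and the actin cross-linkers ACTN1 and FLNA at 101.8 TPM ± 3.91 and 87.5 TPM ± 5.11. Talin was mainly TLN1 (23.5 TPM ± 2.33) rather than TLN2 (2.98 TPM ± 0.417). The leukocyte form FERMT3 had 0.470 TPM ± 0.276. Of 6 listed inhibitors of integrin activation, 5 were detected (83.3%), and ITGB1BP1, which binds the ITGB1 tail, had 35.6 TPM ± 3.24. FLNA, the highest of the 6, and TNS1, which was not detected, are also among the 26 activators and adaptors. All 13 integrin-associated membrane proteins were detected, among them the tetraspanin CD151, a partner of laminin-binding integrins, at 142.1 TPM ± 10.09. Of 9 folding and trafficking genes 8 were detected (88.9%), with the chaperones CALR and CANX at 3119 TPM ± 304 and 805.3 TPM ± 82.2. In the hemidesmosome list, 3 of 5 measured genes were detected (60%), near the share of all genes. They were CD151, DST and PLEC, with the cytoskeletal linkers DST and PLEC at 3.01 TPM ± 0.785 and 2.85 TPM ± 0.586.

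Spread between libraries differed among members. The 17 detected members had coefficients of variation from 3.60% (ITGA3) to 29.7% (ITGA6), with a median of 10.2%, beside 7.56% over the 11418 detected genes. Above the 90th percentile of all detected genes, 17.8%, lay 2 of the 17, ITGA6 and LAMA1. Against genes of similar mean level, 5 of 17 lay above the 90th percentile, which 10% of genes exceed by construction: ITGA6 and LAMA1 among genes of 1 to 10 TPM, ITGA5 and ITGAV among those of 10 to 100 TPM, and ITGB1 among those of 100 to 1000 TPM. For ITGB1 the coefficient was 10.2% against a percentile of 9.91%, and for ITGA5 14.4% against 14.2%, both narrow margins. Of the 17, 11 were highest in replicate 1, near the 57.7% of all detected genes that were. Which step set this shared difference between libraries was not tested.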

How the data were processed

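Poly(A) RNA was sequenced on a DNBSEQ-T7 instrument from libraries that keep the strand, per the labels' protocols. Per the submitters' processing notes, HISAT2, StringTie and DESeq2 were used with GRCh38, with no role or version stated. The authors deposited TPM, FPKM and estimated counts of reads for each library, per the file headers. The libraries labelled control held 20941185, 22309228 and 22477571 estimated reads, of which the members took 0.145% to 0.163%. Library pairs differed by more than counting noise (chi-square per degree of freedom 8.49, 15.8 and 6.18), so none was a repeat deposit. A further 12 columns of values, under a prefix that matches no label, were used in no step.

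Detection meant no library below 1 TPM, and a stricter level was set at 10 TPM. Intervals and floors (3 reads) cover counting error only. Known integrin pairs and laminin trimers were written down from textbook knowledge, and their scarcer chain was taken per library. Neighbours in the order of levels were called separate where their ranges did not overlap. No test between groups was run, because 0 of 3 knockout column names were found. The planned edgeR fit, an analysis of both genotypes, was therefore not made. The members and lists were chosen with earlier results of these data known. All members could be named, and of other lists the 4 highest genes, and genes a sentence on a member turns on, which were chosen after their values were seen. Positions come from RefSeq (GRCh38.p14), exon overlaps from GENCODE 29, both on GRCh38. The code for the calls was run on simulated levels far from 1 and 10 TPM. Recovery was certain there, so that run says nothing about genes near either minimum. Alternatives were FPKM, at least 10 estimated reads, 5 TPM, scaling without 85 ribosomal protein genes, a pseudocount of 0.1 in log2(TPM + 1) and leaving out each library. The software was matplotlib 3.10.9, scipy 1.17.1, numpy 2.4.6 and pandas 2.3.3 under Python 3.11.15. A laminin chain gene is not reported here by name and stays in the counts, sums and medians.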

Additional observations from a re-analysis of the deposited data

How the results depend on the processing

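No paired analysis was possible because the knockout samples, which share replicate numbers with the controls, had 0 matched columns. Of 65 alternative values, 56 stayed close to the value reported and 9 moved. A count was called close up to a 1.5-fold difference. By that rule 25 detected members with at least 10 estimated reads, against 17, were close. FPKM and scaling without ribosomal protein genes cannot change ratios or shares within a library beyond rounding. Those values among the 56 were fixed in advance. With at least 10 estimated reads in place of 1 TPM, which changes unit and minimum together, 18 integrin subunits were detected against 10, and 15 pairs against 7; the 8 genes gained were ITGA1, ITGA2B, ITGA11, ITGAX, ITGB2, ITGB3, ITGB4 and ITGB8. With a minimum of 5 TPM, 10 members were detected against 17, with 5 integrin subunits, 4 integrin pairs and 4 laminin trimers against 8. Laminin chain counts were 7 under each other alternative and 5 at 5 TPM. With FPKM, 5 members reached the level of 10 against 8, and ITGA7 and ITGAM fell below 1. FPKM summed to 566295, 578957 and 587054 per library, less than the TPM total. The same minimum is therefore stricter in FPKM and can only lose members. The members' median over the median of all genes was 0.0985, and 0.175 with estimated reads, a unit that ignores transcript length. The mean log2 level was 1.83, and 0.52 with a pseudocount of 0.1. ITGA1 was detected without replicate 3 and with scaling that leaves out ribosomal protein genes, which adds the collagen receptor ITGA1/ITGB1 as an eighth pair. Without each library in turn, detected members ranged from 17 to 18, integrin subunits from 10 to 11 and pairs from 7 to 8. Trimers stayed at 8, as did members at 10 TPM. Detection asks for the minimum in every library kept, so leaving a library out can only keep or add genes, pairs and trimers. Scaling without ribosomal protein genes raises every other level, so it too can only keep or add. A loss was not possible in either setting. The alpha sum over ITGB1 ranged from 0.467 to 0.533, against 0.508, the ITGA5 share from 56.2% to 61.3% and the LAMB1 share of laminin TPM from 39.5% to 40.2%. The stricter level was not defined for reads or for the 5 TPM minimum, nor the median for that minimum, and the knockout comparison with its replicate block was not run. Depth limits the members that rest on a few reads, such as LAMA4 with 11 in all and ITGB6 with 1.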
